A study of Mus musculus with 3 samples.

Results

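Gpnmb-positive macrophages were cell barcodes of newborn mouse liver that passed a macrophage gate and held at least 2 UMIs (unique molecular identifiers, each marking 1 captured probe pair) of Gpnmb. The macrophage gate asked for at least 3 of the 7 genes C1qa, C1qb, C1qc, Clec4f, Vsig4, Cd163 and Timd4 with 2 or more UMIs each, and for a summed level of the C1q genes of at least 500 CPM (UMIs of the gene scaled to 1000000 UMIs of the cell or of the summed group). It found 346 macrophages among 25845 barcodes. The Gpnmb-positive ones, called members below, numbered 83, of which 74 came from the knockout (KO) library, 6 from the library labelled Het and 3 from the library labelled WT. The 263 macrophages with 0 or 1 Gpnmb UMI are called non-members; 77 were in KO, 93 in labelled Het and 93 in labelled WT. Members were thus chosen by the Gpnmb count itself, and their Gpnmb level is a description of that choice.

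The study set livers of pups at postnatal day 0 side by side in 3 genotypes: pex2-/- (KO), pex2-/+ (Het) and pex2+/+ (WT). Viable CD45+ cells were sorted after hepatocytes had been spun down and red cells lysed, then fixed, and RNA was read with the 10x Genomics Flex assay, in which pairs of gene-specific probes stand in for the transcript. Each genotype was 1 library, and the labels do not say how many pups or livers it pooled. Every comparison therefore has no replicate check, no test was possible, and the intervals given are exact 95% intervals that cover counting error only.

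Pex2 encodes a membrane protein of the peroxisome, the organelle that shortens very long-chain fatty acids and makes ether lipids; without it, matrix enzymes are not imported. Kupffer cells, the resident macrophages of liver sinusoids, clear particles, dying cells and red cell iron, and are marked in mice by Clec4f, Timd4, Cd5l and Vsig4. Gpnmb encodes a transmembrane glycoprotein of endosomes and lysosomes that macrophages make under lysosomal or lipid load, and it is a target of the MiT/TFE transcription factors, which drive lysosome and autophagy genes.

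Pex2 checked the labels only in part. It had 0 UMIs in KO members and 0 in KO non-members, where a count of 0 allows up to 2.22 and 2.39 CPM (3 counts of the group's total). Labelled Het non-members had 59.1 CPM and labelled WT non-members 20.4 CPM, so the library labelled Het held more Pex2 than the library labelled WT. For this reason both are named by their labels throughout. Total UMIs were 186295183 in KO, 144589956 in labelled Het and 96629431 in labelled WT. Depth per cell differed the same way, with a median of 15497 UMIs in KO members, 14436 in KO non-members, 11235 in labelled Het non-members and 7573 in labelled WT non-members. No full barcode occurred in more than 1 library, but its first part (16 bases) was shared by 961 to 1184 barcodes between pairs of libraries, and 17 of the 74 KO members (23.0%) carried a first part that also occurred in another library.

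Promoter windows of 4 genes on which the results turn are shown first, each from 250 bases before to 50 after a RefSeq start site, 5′ to 3′ on the gene's strand in GRCm38.p6. Gpnmb (chr6:49036546-49070929, plus strand, in the GENCODE annotation of mm10) defines the cells. Il1r2 was among the genes highest in KO members against both other libraries, and the Cd209f and Cd209g lectin genes were the lowest. Capitals mark matches to the E-box CACGTG or the AP-1 motif TGANTCA, searched on both strands.
Gpnmb, chr6:49036268-49036567, plus strand: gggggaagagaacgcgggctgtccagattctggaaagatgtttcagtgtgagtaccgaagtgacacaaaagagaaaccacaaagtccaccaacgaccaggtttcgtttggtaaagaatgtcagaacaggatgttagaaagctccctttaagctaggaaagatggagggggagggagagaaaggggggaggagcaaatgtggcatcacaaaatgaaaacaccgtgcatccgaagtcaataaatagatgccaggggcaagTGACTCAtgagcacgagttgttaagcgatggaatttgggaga
Il1r2, chr1:40085843-40086142, plus strand: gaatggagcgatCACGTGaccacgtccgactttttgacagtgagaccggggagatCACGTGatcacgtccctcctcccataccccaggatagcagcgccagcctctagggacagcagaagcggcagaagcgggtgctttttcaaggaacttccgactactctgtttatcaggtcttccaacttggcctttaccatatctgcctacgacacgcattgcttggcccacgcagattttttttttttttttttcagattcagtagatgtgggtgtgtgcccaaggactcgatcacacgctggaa
Cd209f, chr8:4105715-4106014, minus strand: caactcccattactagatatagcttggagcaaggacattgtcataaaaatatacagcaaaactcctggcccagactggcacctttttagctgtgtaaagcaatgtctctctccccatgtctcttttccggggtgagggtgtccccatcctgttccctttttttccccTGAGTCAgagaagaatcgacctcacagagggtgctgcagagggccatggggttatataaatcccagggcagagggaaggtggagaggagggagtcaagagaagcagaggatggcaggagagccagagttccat
Cd209g, chr8:4134486-4134785, plus strand: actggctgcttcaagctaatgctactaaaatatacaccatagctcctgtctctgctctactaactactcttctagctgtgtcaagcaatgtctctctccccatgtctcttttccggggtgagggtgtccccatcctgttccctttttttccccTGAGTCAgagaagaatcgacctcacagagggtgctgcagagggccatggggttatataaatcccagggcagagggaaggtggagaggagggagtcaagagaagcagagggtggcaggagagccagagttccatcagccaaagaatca
The Gpnmb window held 1 AP-1 match, which started 8 bases after the RefSeq start site, and no E-box or M-box (TCATGTG). That RefSeq start and the match both lie before the annotated gene start of Gpnmb. The Il1r2 window held 2 E-boxes, at 238 and 195 bases before its start, a start that lies inside the annotated gene. Each Cd209 window held 1 AP-1 match, and the pair shared an unbroken run of 180 identical bases. The RefSeq starts used for Cd209f and Cd209g also lie inside the annotated genes. Among all 32851 promoter windows of this length, 7.15% held the E-box, 3.77% the M-box and 7.81% the AP-1 motif. Of the 45 named genes with Gpnmb, 35 had a window. Their 41 windows included 7 with the E-box, 2 with the M-box and 6 with AP-1. Windows of 1 gene can overlap: Hsph1 and Ceacam10 each gave 2 E-box windows that hold the same match. The AP-1 windows include the Cd209 pair with its shared run, so the windows are not independent. These matches are letters in a window and were not tied to binding.

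Gpnmb divided the KO macrophages into groups of about equal size. It was found with at least 2 UMIs in 49.0% of KO macrophages (74 of 151, Clopper-Pearson interval 40.8 to 57.3), in 6.06% of those labelled Het (6 of 99, 2.26 to 12.7) and in 3.13% of those labelled WT (3 of 96, 0.649 to 8.86). Among KO macrophages 67 held no Gpnmb UMI and 10 held 1; at the gate itself 10 held 2 and 5 held 3, and the highest held 240. When each macrophage was thinned to 5000 UMIs and shallower ones were left out, the share was 41.7% in KO (50 of 120), 3.70% in labelled Het (2 of 54) and 1.45% in labelled WT (1 of 69), so the KO library stood apart at equal depth too. Summed over cells, Gpnmb was at 1013 CPM in KO members, 7.97 in KO non-members, 1.82 in labelled Het and 2.40 in labelled WT non-members. Within the KO members the quartiles were 376, 883 and 1351 CPM, and the single highest cell supplied 17.5% of all Gpnmb UMIs.

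**Figure D1:**
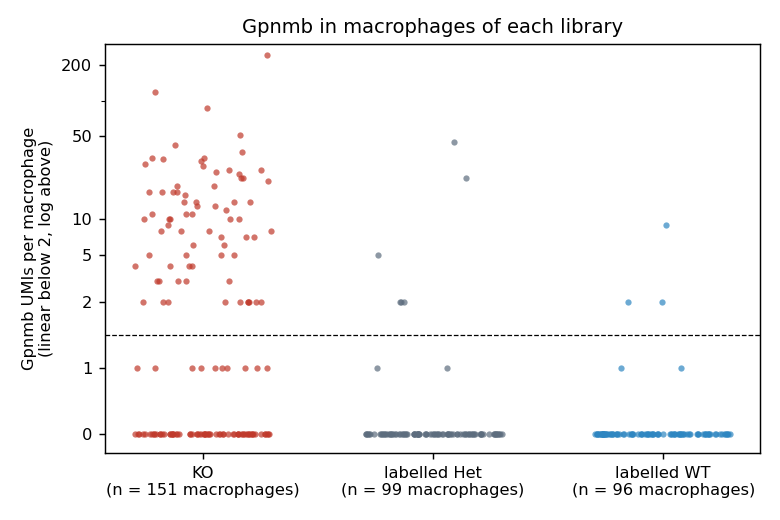
Gpnmb UMIs in each macrophage (vertical axis, linear below 2 and logarithmic above) by library; each point is 1 cell, spread sideways at random, and the dashed line is the gate. The 74 KO members reach from 2 to 240 UMIs, while 6 macrophages labelled Het and 3 labelled WT lie above the line.

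Outside the macrophage gate, Gpnmb was found in monocytes, the blood-borne precursors of many tissue macrophages. Monocytes here were cells with 2 or more UMIs of at least 3 of Ccr2, F13a1, Vcan and Ms4a6c that failed the macrophage gate. Their Gpnmb level was 53.5 CPM in KO, 38.7 CPM in labelled Het and 19.5 CPM in labelled WT. At least 2 Gpnmb UMIs were present in 27.9% of KO monocytes (337 of 1210), 14.7% of labelled Het (107 of 727) and 6.34% of labelled WT (45 of 710). Median depth was 28112.5 UMIs in KO, 23863 in labelled Het and 14972 in labelled WT monocytes, and its part in these shares was not tested. Cells of the neutrophil lineage, which should lack the gene, had 0.383 CPM in KO, 0.232 in labelled Het and 0.129 in labelled WT, and 0.816% of the KO ones held any Gpnmb UMI at a median depth of 22830.5 UMIs, far below the share in KO macrophages.

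The cells were checked against the markers of their label, Gpnmb, Apoe, Cd163, C1qa and Clec4f. The genes C1qa, Clec4f and Cd163 belong to the gate and Gpnmb to the rule, which leaves Apoe as the only one the rule did not use. Apoe, the apolipoprotein that carries cholesterol out of macrophages, stood at 29830.1 CPM in KO members, 17349.6 in KO non-members, 14399.5 in labelled Het and 16767 in labelled WT non-members. The excess of KO members over KO non-members was 1.72-fold (interval 1.69 to 1.75), under the 2-fold used for calls below. C1qa, a subunit of the complement starter C1q, had 4969 CPM in KO members, 4021 in KO non-members, 4167 in labelled Het and 4504 in labelled WT non-members. Clec4f, a Kupffer cell lectin, had 2149 CPM in KO members, 1696 in KO non-members, 2583 in labelled Het and 2999.8 in labelled WT non-members, and 86.5% of KO members held a UMI of it. Cd163, the haemoglobin scavenger receptor, was not higher in KO members than in KO non-members. It was detected in 35.1% of KO members and 51.9% of KO non-members, with 741 CPM in KO members and 943 CPM in KO non-members. The top cell held 22.6% of the Cd163 UMIs of KO non-members. Detection was lower in the other, shallower libraries, at 19.4% of labelled Het and 28.0% of labelled WT non-members. Thinned to equal depth, the shares were 29.4% in KO members, 41.8% in KO non-members, 14.3% in labelled Het and 26.5% in labelled WT non-members. The interval of KO members then overlapped that of each other group.

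Clec4f, Cd163 and Timd4 are gate genes, so their levels describe which cells the gate took and do not test the label. Of the 74 KO members, 63 (85.1%, interval 74.96 to 92.3) had 2 or more Clec4f UMIs. The other 11 had a Gpnmb level of 2034 CPM, against 874 CPM in the 63. Single cells can weigh on these sums, as the top KO member held 17.5% of the Gpnmb UMIs of KO members. The spread of Gpnmb among the 11 was not examined. In these 11 cells Cd163 and Timd4 were at 0 UMIs and the scavenger receptor Marco was at 36.9 CPM, against 1421 CPM in the 63. Ccr2, the receptor that brings monocytes out of the marrow, was at 270.4 CPM in the 11 and 57.1 CPM in the 63, and fibronectin (Fn1) at 4246 CPM in the 11 and 711 CPM in the 63. Cells with 0 or 1 Clec4f UMI were 14.9% of KO members and a larger share, 29.9% (23 of 77), of KO non-members, where they had 8162 CPM of Fn1 and 1444 CPM of F13a1. They were 20.4% of labelled Het non-members (19 of 93) and 14.0% of labelled WT non-members (13 of 93). Of the 9 members of the other libraries, 3 of 6 labelled Het and 2 of 3 labelled WT had fewer than 2 Clec4f UMIs. With so few cells, those 9 are not described further as groups.

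RNA of neutrophils differed between the groups compared. Summed over 12 neutrophil markers it made up 30169 CPM in KO members, 107471 in KO non-members, 92401 in labelled Het non-members and 56351 in labelled WT non-members. None of the 12 was at 0 in KO members. Per cell, the median of 5 granule genes (Camp, Ltf, Ngp, S100a8 and S100a9) was 3119 CPM in KO members, 4346 in KO non-members, 7045 in labelled Het non-members and 7779 in labelled WT non-members, and single cells ranged up to 219695 CPM in KO members and 341625 CPM in KO non-members. Scrublet marked 5 of 74 KO members, 6 of 77 KO non-members, 2 of 93 labelled Het and 6 of 93 labelled WT non-members as doublets. Of the 7 monocyte markers probed none was at 0 in KO members, and their sum was 1492 CPM in KO members, 2014 in KO non-members, 1644 in labelled Het and 1056 in labelled WT non-members. Markers of stellate cells (1.48 CPM summed in KO members, 6 of 8 at 0) and of mast cells (0.739 CPM, 5 of 6 at 0) were close to absent. Others were not: erythroid markers summed to 560 CPM in KO members and 178 in KO non-members, and hepatocyte markers to 177 and 155. Sinusoidal endothelium markers summed to 137 and 143 CPM, B-lineage to 67.9 and 73.3 and megakaryocyte to 66.5 and 48.6. The erythroid sum was uneven, with a median of 0 per KO member and 148840 CPM in the highest cell.

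The first comparison set KO members against KO non-members, cells of 1 library that share genotype and free RNA. A gene was called when its level differed at least 2-fold with a counting interval excluding 1, its mean level was at least 50 CPM with 30 or more UMIs, and at least 20% of the cells of the higher group held it. Of 4551 genes tested, 117 were higher in KO members (2.57%) and 113 were lower (2.48%), and Gpnmb is 1 of the 117. Scaling by DESeq2 size factors gave 88 higher and 133 lower. Across all genes measured at 10 CPM or more the median log2 ratio was 0.12. The genes highest in members encode receptors (Lepr, Cd14, Colec12), enzymes of lipid synthesis (Scd1, Pmvk) and chemokines (Cxcl2, Ccl3), while several of the lowest are known from neutrophils.

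Lepr, which encodes the leptin receptor, a cytokine-type receptor (chr4:101717404-101815352), was at 2057 CPM in KO members, 354 in KO non-members, 92.8 in labelled Het and 87.4 in labelled WT non-members. Its excess over KO non-members was 5.81-fold (interval 5.26 to 6.44), with a UMI in 74.3% of KO members and 39.0% of KO non-members. It was not carried by 1 cell, as the median KO member had 1246 CPM and the highest cell held 8.62% of the UMIs. Cd14, the co-receptor for bacterial lipopolysaccharide, stood at 4577 CPM in KO members, 971 in KO non-members, 1022 in labelled Het and 1037 in labelled WT non-members. Only the KO members stood out, since the other groups lay between 971 and 1037 CPM. Their excess over KO non-members was 4.71-fold (interval 4.43 to 5.01). Colec12, a scavenger receptor of the collectin family, had 558 CPM in KO members, against 159 in KO non-members. Sh3bgrl2, a small thioredoxin-like protein, had 956 CPM in KO members, against 261 in KO non-members.

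Lipid and sulfur metabolism supplied 3 of the leading genes. Pmvk, which phosphorylates mevalonate on the way to cholesterol, had 319 CPM in KO members, against 59.0 in KO non-members, a 5.38-fold (interval 4.22 to 7.02) excess. Scd1, the desaturase that makes oleate, had 99.0 CPM in KO members, against 16.7 in KO non-members. Slc7a11, the cystine importer that feeds glutathione synthesis, had 112 CPM in KO members, against 23.1 in KO non-members. Each was found in a minority of cells or in few UMIs per cell: Scd1 in 33.8% and Slc7a11 in 39.2% of KO members, with 17.9% and 25.7% of the UMIs in the top cell. Sowahc, an ankyrin-repeat protein, had 100.4 CPM in KO members, against 27.9 in KO non-members.

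The neutrophil-attracting chemokine Cxcl2 (chr5:90903871-90905938) had the largest ratio of the genes named, 10.2-fold (interval 8.05 to 13.4), with 566 CPM in KO members, against 55.0 in KO non-members. It was uneven, present in 35.1% of KO members and 11.7% of KO non-members, and the top cell held 15.8% of the UMIs in members and 58.0% in non-members. Ccl3, a chemokine for monocytes and lymphocytes, was 4.13-fold (interval 2.78 to 6.50) higher, but its log2 ratio was 0.55, short of a call, after thinning to 5000 UMIs. Hsph1, a heat shock protein, was 4.45-fold (interval 3.19 to 6.49) higher. Hbb-bs, a beta-globin, was called higher at 292 CPM in KO members, against 70.9 in KO non-members, but 58.3% of its UMIs came from 1 cell, and its log2 ratio changed sign, to -2.88, when membership needed 5 Gpnmb UMIs.

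The 12 genes lowest in KO members against KO non-members were Asprv1, Adgre4, Stfa3, Ngp, AA467197, Ltf, Cd24a, Rhou, Alox5, Abca13, Ceacam10 and S100a4. Ngp and Ltf encode granule proteins of neutrophils. Ngp was at 3298 CPM in KO members, against 17616 in KO non-members. Ltf was at 900.3 CPM in KO members, against 4617 in KO non-members. Stfa3, a neutrophil stefin, was at 417 CPM in KO members, against 2520.1 in KO non-members. Asprv1, a retroviral-like protease, was at 26.6 CPM in KO members, against 349 in KO non-members. Of the 12 neutrophil markers, 8 were called lower, beside 2.48% of all genes. In KO members the top cell held 52.2% of the Ltf UMIs and 40.9% of the Ngp UMIs. In KO non-members the top cell held 10.6% of the Ltf UMIs and 14.9% of the Ngp UMIs. An alternative left out macrophages whose granule RNA lay above the median of KO macrophages, 3917 CPM. These were 34 of 74 KO members and 41 of 77 KO non-members. Without them the log2 ratios of Asprv1, Stfa3, Abca13 and Ceacam10 changed sign, each with a counting interval that included 0, and that of Ltf became -0.05. Ngp was at -0.46 and AA467197 also at -0.46, short of a call. Adgre4 (log2 ratio -3.15 without those cells), Alox5 (-2.60) and S100a4 (-2.61) stayed lower, though S100a4 was at -0.74 among macrophages with 2 or more Clec4f UMIs. Cd24a and Rhou were lower in every alternative, this exclusion included, with log2 ratios of at most -1.30 and -1.85. Adgre4, an adhesion receptor of macrophages and monocytes, was at 13.3 CPM in KO members, against 89.2 in KO non-members, and Alox5, the 5-lipoxygenase that starts leukotriene synthesis, at 25.8 CPM in KO members, against 123 in KO non-members. Under the same exclusion the leading higher genes kept their direction, with log2 ratios of 2.64 for Cxcl2, 2.45 for Pmvk, 2.17 for Lepr and 1.83 for Cd14.

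**Figure D2:**
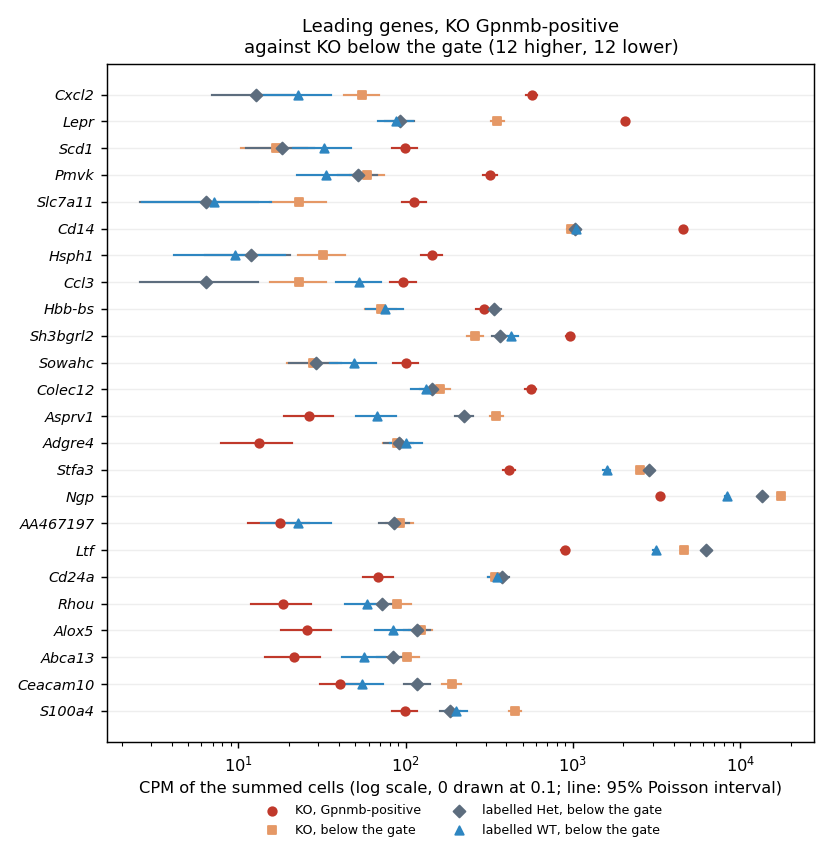
Level (CPM of summed cells, logarithmic axis) of the 12 genes called higher and the 12 called lower in KO Gpnmb-positive macrophages with the largest ratio to KO macrophages below the gate, in 4 groups of macrophages; lines are 95% Poisson intervals. Lepr and Cd14 stand at 2057 and 4577 CPM in KO members, to the right of the other 3 groups, and Ngp at 3298 CPM stands to the left of them.

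The second comparison set KO members against the non-members of labelled Het and of labelled WT, and a gene counted only when it passed against each on the same side. Of 4557 genes tested, 193 were higher (4.24%) and 164 lower (3.6%). With DESeq2 size factors these were 150 higher and 199 lower. For scale, labelled Het over labelled WT non-members gave 76 higher (1.71%) and 101 lower (2.27%) of 4440 genes, a comparison of 1 library with 1. KO non-members against both libraries gave 63 higher (1.41%) and 105 lower (2.35%) of 4460. The comparisons share the same control cells, so values of the groups are given side by side. Some genes were at similar levels in all KO macrophages and apart from the other libraries, and others were highest in the members.

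Of the 12 genes highest against both libraries, Cxcl2, Lepr and Hsph1 have been described. Il1r2, the decoy receptor that soaks up interleukin-1, was at 792 CPM in KO members, 472 in KO non-members, 58.2 in labelled Het and 39.5 in labelled WT non-members. The 2 KO groups lay above the other 2, and members exceeded labelled Het by 13.5-fold (interval 10.6 to 17.8) and labelled WT by 19.8-fold (interval 14.2 to 29.3). Zbtb16, a zinc-finger transcription factor, was at 174 CPM in KO members, 132 in KO non-members and 13.6 in labelled Het non-members, with 0 UMIs among labelled WT non-members. Against the 3.59 CPM that 3 counts would give there, KO members were at least 48.5-fold higher. Clec4d, a C-type lectin for mycobacterial glycolipid, was at 686 CPM in KO members, 299.6 in KO non-members, 64.6 in labelled Het and 70.7 in labelled WT non-members. Alpk1, a kinase that senses bacterial sugar nucleotides, was at 397 CPM in KO members, 249 in KO non-members, 58.2 in labelled Het and 55.1 in labelled WT non-members.

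Of the remaining 5, Adam8, a membrane metalloprotease, stood at 932 CPM in KO members, 326 in KO non-members, 106 in labelled Het and 65.9 in labelled WT non-members. Fbxo32, a ubiquitin ligase subunit best known from muscle wasting, had 239 CPM in KO members, 78.9 in KO non-members, 16.4 in labelled Het and 24.0 in labelled WT non-members. Arg2, the mitochondrial arginase, had 218 CPM in KO members, 95.6 in KO non-members, 30.9 in labelled Het and 21.6 in labelled WT non-members. Pim3, a serine/threonine kinase, had 310.2 CPM in KO members, 128 in KO non-members, 37.3 in labelled Het and 44.3 in labelled WT non-members. In these genes the levels descended from KO members over KO non-members to the other libraries. Postn, the matrix protein periostin, had 154 CPM in KO members, 95.6 in KO non-members, 10.0 in labelled Het and 16.8 in labelled WT non-members. Its interval in KO members did not reach that of any other group.

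Most of the 12 genes lowest against both libraries were low in KO members and in KO non-members alike. Cd209f, a C-type lectin (chr8:4102787-4105835), was at 2.22 CPM in KO members, 1.59 in KO non-members, 813 in labelled Het and 933 in labelled WT non-members. The 2 KO groups held 3 and 2 UMIs of it. The ratio of KO members to labelled Het was 0.00318 (interval 0.000561 to 0.00799). The neighbouring Cd209g (chr8:4134098-4137707) was at 0.739 CPM in KO members, 1.59 in KO non-members, 827 in labelled Het and 1132 in labelled WT non-members, and the ratio to labelled Het was 0.00134 (interval 2.26e-05 to 0.00499). Cd209f and Cd209g belong to 1 lectin family, and whether their probes tell the transcripts apart was not tested, so the split of UMIs between them is uncertain. Cd5l, a secreted scavenger protein of Kupffer cells that binds lipid (chr3:87357881-87371073), stood at 160.3 CPM in KO members, 236 in KO non-members, 2754 in labelled Het and 2659 in labelled WT non-members. It was detected in 45.9% of KO members, 51.9% of KO non-members, 84.9% of labelled Het and 86.0% of labelled WT non-members.

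Dhx40, an RNA helicase of the DEAH family, was 16.6-fold lower in KO members than in labelled Het and 26.3-fold lower than in labelled WT, at 43.6 CPM in KO members, 27.1 in KO non-members, 729 in labelled Het and 1154 in labelled WT non-members. Without granule-rich macrophages the log2 ratio to labelled WT was -0.52 and no longer a call. That cut was set by KO macrophages and left out 71 of 93 labelled WT and 61 of 93 labelled Het non-members. The value therefore rests on few labelled WT cells. In monocytes the same gene had 38.7 CPM in KO, 34.7 in labelled Het and 35.2 in labelled WT. Dnase1l3, the secreted nuclease that trims chromatin from dying cells, had 8.86 CPM in KO members, 16.7 in KO non-members, 94.6 in labelled Het and 128 in labelled WT non-members. Crip2, a LIM-domain protein, had 4.43 CPM in KO members, 20.7 in KO non-members, 70.1 in labelled Het and 113 in labelled WT non-members. Cdh5, VE-cadherin of endothelium, which Kupffer cells also express, had 30.3 CPM in KO members, 69.3 in KO non-members, 188 in labelled Het and 190.4 in labelled WT non-members. Adgre4 was the exception among the 12, as its level in KO non-members lay near those of the other libraries. It had 13.3 CPM in KO members, 89.2 in KO non-members, 91.0 in labelled Het and 101 in labelled WT non-members. It was called within KO as well. With KO macrophages taken as a whole its log2 ratio was -0.81 against labelled Het and -0.96 against labelled WT. Crip2 and Cdh5 were also lower in KO members than in KO non-members, but averaged below 50 CPM there and were not tested within KO. Treml4, a receptor for dying cells, had 26.6 CPM in KO members, 42.2 in KO non-members, 175 in labelled Het and 222 in labelled WT non-members. Ifi27l2a, an interferon-induced gene, had 19.2 CPM in KO members, 24.7 in KO non-members, 123 in labelled Het and 139 in labelled WT non-members. Its log2 ratio to labelled Het was -0.78, short of a call, among macrophages with 2 or more Clec4f UMIs, and -0.94 when 4 gate genes were asked for. Adgb and Vstm4 completed the 12, with 7.39 and 6.65 CPM in KO members.

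**Figure D3:**
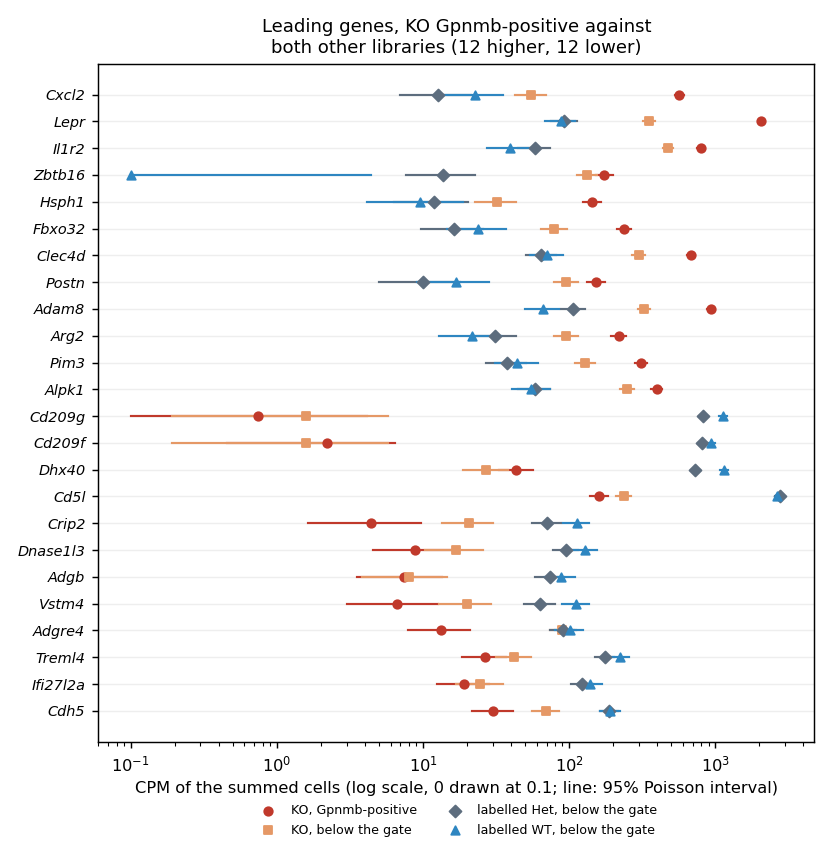
Level (CPM of summed cells, logarithmic axis, 0 drawn at 0.1) of the 12 genes called higher and the 12 called lower in KO Gpnmb-positive macrophages against both other libraries; lines are 95% Poisson intervals. For Cd209f the KO groups stand at 2.22 and 1.59 CPM, far left of labelled Het at 813 and labelled WT at 933 CPM, while for Lepr the members stand right of all others at 2057 CPM.

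Shares of cells with a UMI were also compared at equal depth. After thinning to 5000 UMIs, 68 of 74 KO members, 67 of 77 KO non-members, 63 of 93 labelled Het and 68 of 93 labelled WT non-members remained. Lepr was found in 73.5% of these KO members, 29.9% of KO non-members, 19.0% of labelled Het and 27.9% of labelled WT non-members. Il1r2 was found in 86.8% of KO members, 65.7% of KO non-members, 11.1% of labelled Het and 16.2% of labelled WT non-members. For both genes the KO members were highest, but KO non-members lay near the other libraries for Lepr and between them and the members for Il1r2. Stfa3, lower in KO members by CPM, was found in 35.3% of KO members and 34.3% of KO non-members, so its share did not differ as its level did. Cd209f was found in 2.94% of KO members and 0 of 67 KO non-members (upper limit 5.36%), against 60.3% of labelled Het and 72.1% of labelled WT non-members. Clec4f, by contrast, was found in 82.4% of KO members, 64.2% of KO non-members, 73.0% of labelled Het and 83.8% of labelled WT non-members.

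**Figure D4:**
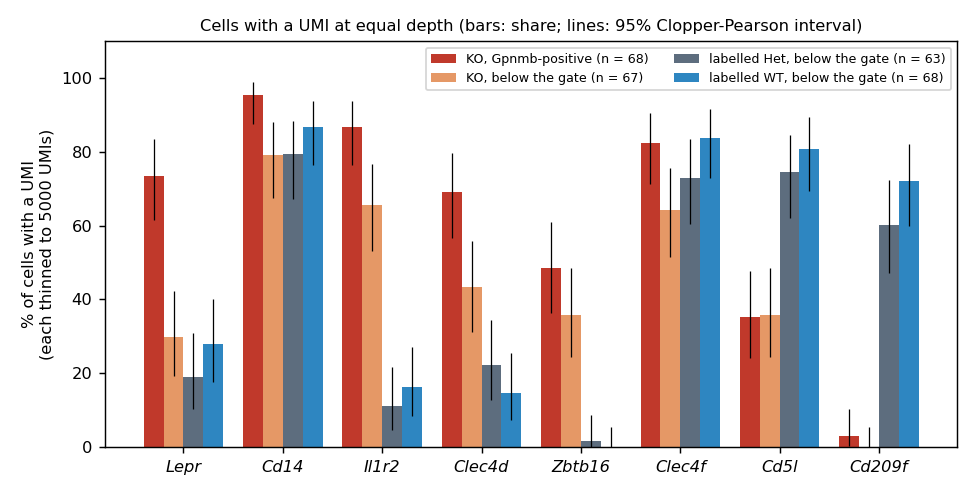
Share of macrophages with at least 1 UMI of 8 genes after each cell was thinned to 5000 UMIs, in 4 groups; bars are shares and lines 95% Clopper-Pearson intervals. Lepr reaches 73.5% in KO members and 29.9% in KO non-members, and Cd209f is near 0 in both KO groups.

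Of 20 Kupffer cell identity genes, 18 were tested against both libraries, and 8 were lower in KO members and 1 higher, where 3.6% and 4.24% of all genes were called; the median log2 ratio was -0.76 against labelled Het and -1.02 against labelled WT. Besides Cd5l and Cdh5 the lower ones were Timd4, the phosphatidylserine receptor, at 114 CPM in KO members, 186 in KO non-members, 391 in labelled Het and 522 in labelled WT non-members, Id1, an inhibitor of basic helix-loop-helix factors, Folr2, the folate receptor, Adgre1 (F4/80), Ccl24, an eosinophil chemokine, and Il18bp, which neutralises interleukin-18. Id1 had 143 CPM in KO members, 164 in KO non-members, 506 in labelled Het and 698 in labelled WT non-members. Ccl24 had 90.8 CPM in KO members, 127 in KO non-members, 391 in labelled Het and 545 in labelled WT non-members. Mrc1, the mannose receptor CD206, was the one called higher, at 2738 CPM in KO members, 1457 in KO non-members, 911 in labelled Het and 998 in labelled WT non-members. Within KO the list had 1 gene called higher, Id3, and none lower, beside 2.57% and 2.48% of all genes, with a median of -0.25. KO non-members had 6 of the list lower and 0 higher against both libraries, beside 2.35% and 1.41% of all genes, with medians of -0.80 against labelled Het and -0.99 against labelled WT. Both KO groups were set against the same control cells. The gate uses Clec4f, Vsig4, Cd163 and Timd4, so their levels in these cells follow in part from the choice.

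Of 37 lysosomal hydrolases and membrane proteins, 35 were tested against both libraries, and 6 were called higher and 1 lower, beside 4.24% and 3.6% of all genes. The median log2 ratio was 0.44 within KO, 0.43 against labelled Het and 0.23 against labelled WT, beside 0.12, 0.11 and 0.07 for all genes. Ctsl, the protease cathepsin L, was at 1304 CPM in KO members, 653 in KO non-members, 393 in labelled Het and 299 in labelled WT non-members. Lamp2, a major protein of the lysosomal membrane, had 814 CPM in KO members, 542 in KO non-members, 308 in labelled Het and 297 in labelled WT non-members. Mcoln1, the calcium channel of lysosomes, had 145 CPM in KO members, 71.7 in KO non-members, 54.6 in labelled Het and 49.1 in labelled WT non-members. Gla, which cuts galactose from glycolipids, and Ppt1, which removes palmitate from proteins, were also among those called higher, and the phospholipase Pla2g15 was lower. None of the 16 subunits of the vacuolar proton pump, which acidifies the lysosome, was called, beside the same shares of all genes. With so few genes, that is no result about the pump. Its medians were 0.37 within KO, 0.49 against labelled Het and 0.45 against labelled WT. Without granule-rich cells the lysosomal median within KO was 0.09.

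Among 16 MiT/TFE factors, their regulators and autophagy genes, 15 were probed and 12 tested, and 6 were called higher against both libraries, beside 4.24% of all genes. Flcn, Fnip1, Fnip2 and Rragc form the folliculin and Rag GTPase machinery that holds TFE3 and TFEB in the cytoplasm. Fnip2 was at 311 CPM in KO members, 169.7 in KO non-members, 97.4 in labelled Het and 101 in labelled WT non-members. Flcn was at 267 CPM in KO members, 149.8 in KO non-members, 102 in labelled Het and 125 in labelled WT non-members. Gabarapl1 and Map1lc3b coat autophagosomes, and Gabarapl1 was at 171 CPM in KO members, 76.5 in KO non-members, 47.3 in labelled Het and 70.7 in labelled WT non-members. Transcripts of the factors themselves were not called. Tfe3 had 113 CPM in KO members, 106 in KO non-members, 108 in labelled Het and 148 in labelled WT non-members. Tfeb had 67.2 CPM in KO members, 80.5 in KO non-members, 67.3 in labelled Het and 75.4 in labelled WT non-members. The list's medians were 0.35 within KO, 1.09 against labelled Het and 0.67 against labelled WT, beside 0.12, 0.11 and 0.07 for all genes.

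Of 21 cholesterol synthesis genes, 4 passed the level filter within KO, and 2 of these, Pmvk and Insig1, were called higher, beside 2.57% of all genes. Within KO 16 of the 17 genes at 10 CPM or more had a ratio above 1, with a median log2 of 0.66, beside 0.12 for all genes. The median was 0.05 against labelled Het and 0.51 against labelled WT. Insig1, which holds back sterol synthesis in the endoplasmic reticulum, was at 222 CPM in KO members, 92.4 in KO non-members, 87.4 in labelled Het and 85.0 in labelled WT non-members. Abca1, the cholesterol exporter induced by liver X receptors, was called within KO, with 918 CPM in KO members, against 441 in KO non-members, but labelled Het non-members had 713 CPM and labelled WT non-members 1295 CPM. Pnpla2, the lipase that opens triglyceride droplets, was called higher against both libraries, at 696 CPM in KO members, 378 in KO non-members, 231 in labelled Het and 271 in labelled WT non-members. Hilpda, which inhibits that lipase, was called within KO but not against the other libraries, at 352 CPM in KO members, 108 in KO non-members, 380.4 in labelled Het and 614 in labelled WT non-members. Lipid-associated macrophages are foam-cell-like cells in which Gpnmb is a known marker. Of 20 of their genes, 12 were tested within KO, where Cd63 was called higher and Cd9 lower, and 13 against both libraries, where Lpl was lower. These counts of 1 are too small to set apart from the shares over all genes. Trem2, the lipid receptor of such cells, was at 31.0 CPM in KO members, 19.1 in KO non-members, 28.2 in labelled Het and 24.0 in labelled WT non-members, and Spp1 at 5.17 CPM in KO members.

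Of 30 peroxisomal enzymes and transporters, 13 were tested within KO and 12 against both libraries. None was called, beside 2.57% higher within KO and 4.24% higher against both over all genes, and so few were tested that this is no result about the list. It had medians of 0.13 within KO, 0.02 against labelled Het and 0.06 against labelled WT. Pex13, a docking protein for import, was called higher against both libraries, 1 of 3 tested among 15 biogenesis genes, beside 4.24% of all genes. A count of 1 is too small to set apart from that share. Pex13 was at 166 CPM in KO members, 97.2 in KO non-members, 66.4 in labelled Het and 41.9 in labelled WT non-members. Of 13 mitochondrially encoded genes, 12 were tested and 5 called higher against both libraries, beside 4.24% of all genes (mt-Nd1, mt-Co1, mt-Co3, mt-Atp6 and mt-Atp8), and the list's median was 0.94 against labelled Het and 1.42 against labelled WT. In KO non-members 3 of the list were called higher against both libraries, beside 1.41% of all genes, with medians of 0.65 against labelled Het and 1.12 against labelled WT. The ATP synthase subunit mt-Atp6 was at 867 CPM in KO members, 657 in KO non-members, 261 in labelled Het and 262 in labelled WT non-members. None of the 23 nuclear respiratory chain genes was called, beside 4.24% higher and 3.6% lower against both libraries over all genes. With so few genes, that is no result about this list. Within KO the mitochondrial median was 0.30 and changed sign in 4 alternatives.

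Further genes named by the rule came from several lists. Klf2, a transcription factor that keeps macrophages quiescent, was lower both within KO and against both libraries, at 146 CPM in KO members, 547 in KO non-members, 633 in labelled Het and 819 in labelled WT non-members. The complement component C3 had 143 CPM in KO members, 489 in KO non-members, 582 in labelled Het and 532 in labelled WT non-members. Il1b was at 34.0 CPM in KO members, 7.97 in KO non-members, 90.1 in labelled Het and 480.2 in labelled WT non-members. Igf1, a growth factor of tissue macrophages, was at 45.1 CPM in KO members, 68.5 in KO non-members, 144 in labelled Het and 212 in labelled WT non-members. Both were called lower against the other libraries. Axl, a receptor for dying cells, had 524 CPM in KO members, 477 in KO non-members, 1223 in labelled Het and 1617 in labelled WT non-members. Thbs1, Pla2g7 and Trp53inp1 were called higher against both libraries. Thbs1, the matrix protein thrombospondin-1, was at 3486 CPM in KO members, 1990.2 in KO non-members, 1163 in labelled Het and 507 in labelled WT non-members. Pla2g7, the hydrolase of platelet-activating factor, was at 3702 CPM in KO members, 2852 in KO non-members, 1106 in labelled Het and 831 in labelled WT non-members. Trp53inp1, a p53 target, was at 533 CPM in KO members, 312 in KO non-members, 89.2 in labelled Het and 38.3 in labelled WT non-members. Gclc and Cd80 were called higher in both comparisons. Gclc, which starts glutathione synthesis, had 169 CPM in KO members, 71.7 in KO non-members, 69.2 in labelled Het and 47.9 in labelled WT non-members. Cd80, a costimulator of T cells, had 139.6 CPM in KO members, 68.5 in KO non-members, 28.2 in labelled Het and 68.3 in labelled WT non-members. Fth1, the ferritin heavy chain, was called within KO and not against both libraries, at 5557 CPM in KO members, 2036 in KO non-members, 3765 in labelled Het and 4202 in labelled WT non-members. Of the 18 genes probed on the interferon-stimulated list, 1 was called lower against both libraries, Bst2, beside 3.6% of all genes. A count of 1 is too small to set apart from that share. Bst2 was at 112 CPM in KO members, 70.9 in KO non-members, 345 in labelled Het and 329 in labelled WT non-members. The list's medians were -0.62 against labelled Het and -1.61 against labelled WT, beside 0.11 and 0.07 for all genes. Its sum was 479 CPM in KO members, 400 in KO non-members, 910 in labelled Het and 1460 in labelled WT non-members. The lower sum was thus shared by both KO groups and not particular to the members.

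**Figure D5:**
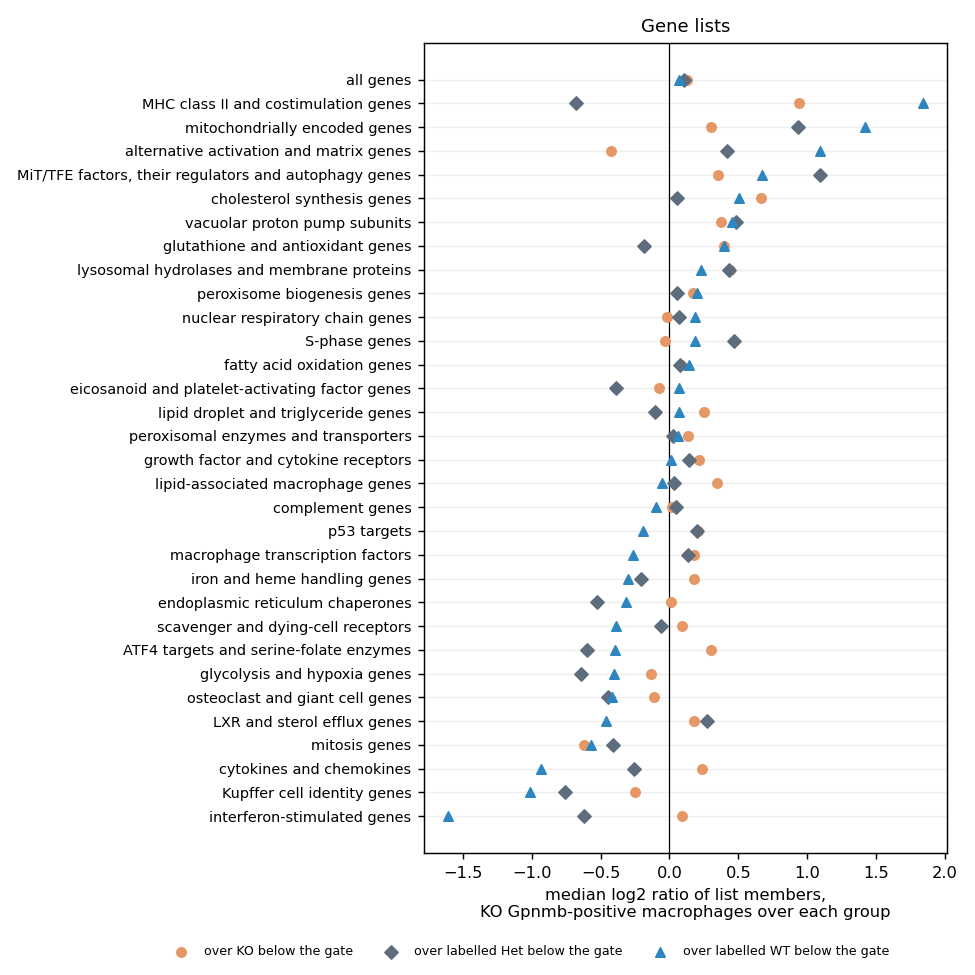
Median log2 ratio (horizontal axis) of the measured members of 31 gene lists and of all genes, KO Gpnmb-positive macrophages over KO, labelled Het and labelled WT macrophages below the gate. Kupffer cell identity genes lie left of 0 at -0.76 and -1.02, and mitochondrially encoded genes right of it at 0.94 and 1.42.

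The KO members differed among themselves. They were cut at the median Gpnmb level into a Gpnmb-high set of 37 cells, with 898 to 8078 CPM, and a Gpnmb-low set of 37, with 47.9 to 867 CPM. The Gpnmb-high cells were shallower, at a median of 13631 UMIs, against 17388 in the Gpnmb-low cells. Both the cut and the leading genes come from the Gpnmb count, so their values in the 2 sets are a description and support nothing. Lepr was at 3694 CPM in Gpnmb-high and 1038 CPM in Gpnmb-low cells, Cd14 at 8004 CPM in Gpnmb-high and 2443 CPM in Gpnmb-low cells and Pmvk at 668 CPM in Gpnmb-high and 102 CPM in Gpnmb-low cells. Scd1 was at 216 CPM in Gpnmb-high and 26.4 CPM in Gpnmb-low cells, Slc7a11 at 241 CPM in Gpnmb-high and 32.4 CPM in Gpnmb-low cells and Adam8 at 1752 CPM in Gpnmb-high and 422 CPM in Gpnmb-low cells. Genes of neutrophils and of division were on the other side. The neutrophil markers summed to 4364 CPM in Gpnmb-high and 46234 in Gpnmb-low cells, mitosis genes to 112 CPM in Gpnmb-high and 1472 in Gpnmb-low cells, and S-phase genes to 458 CPM in Gpnmb-high and 2189 in Gpnmb-low cells. Few cells weigh on the neutrophil sums, as the top KO member held 60.6% of the Camp, 52.2% of the Ltf and 40.9% of the Ngp UMIs. Granule RNA is also part of the total by which Gpnmb CPM is scaled, so the cut and these sums are not independent. Dividing cells, with at least 3 UMIs of Mki67, Top2a and Cdk1, were 17 of 74 KO members (23.0%), 19 of 77 KO non-members (24.7%), 14 of 93 labelled Het and 13 of 93 labelled WT non-members.

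Across the 74 KO members, Gpnmb CPM rank-correlated with Apoe (Spearman 0.46), with Marco (-0.34), with UMIs per cell (-0.26) and with granule RNA (-0.10). These cells share 1 library and CPM values share a total, so the coefficients describe the cells and carry no test. Cells just outside the gate, with 1 Gpnmb UMI (10 cells), had 396 CPM of Lepr and 19011 CPM of Apoe. Just inside, the 10 with 2 UMIs had 527 and 21882 CPM, and the 5 with 3 UMIs had 1601 and 19459 CPM. Clec4f was at 676 CPM in the cells with 1 UMI, 2593 with 2 and 1065 with 3, so the order at the gate differed between genes.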

How the data were processed

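Cells of 3 libraries were read with the 10x Genomics Flex assay; the deposited matrices hold counts (UMIs per gene and barcode), made by the authors with Cell Ranger 7.0.0 against mm10, per the submitters' processing notes. The matrices are filtered, with 19059 genes probed, and their barcodes were used as they stand. Doublets were marked with Scrublet (scanpy 1.11.5) and kept, and leaving them out was an alternative. UMIs were summed over the cells of a group and scaled to 1000000 (CPM), and log2 ratios had 0.5 counts added. Ratios have exact conditional binomial intervals and levels exact Poisson intervals (95%, scipy 1.17.1). There was no test, because each genotype is 1 library and cells are not replicates. edgeR 4.0.16 (TMM) and DESeq2 1.42.0 gave alternative scaling factors only. A list's median was taken over those genes that averaged 10 CPM or more. The call rule was tested on simulated data with counting error only, so that test does not cover variation between cells.

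Named genes were the 12 with the largest ratio in each direction of both comparisons, leaving out Gpnmb, gate genes and Pex2, and up to 4 members per list. The members and lists were chosen with earlier results of these data known, and the promoter motifs after the sequences were read. Alternatives changed the gates, depth, scaling, low-level filter, library compared and cells included. Python 3.11.15 with numpy 2.4.6, pandas 2.3.3 and matplotlib 3.10.9, and R 4.3.3, were used.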

Additional observations from a re-analysis of the deposited data

How the results depend on the processing

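The share of KO macrophages past the Gpnmb gate was 36.4% when 5 UMIs were asked for. Genes higher within KO numbered 311 with a 10 CPM filter. Genes lower within KO numbered 182 after thinning to 5000 UMIs and 209 with a 10 CPM filter. Genes higher against both libraries numbered 108 with KO macrophages taken as a whole, 351 with a 10 CPM filter, 319 against labelled Het only and 413 against labelled WT only. Genes lower against both numbered 253 after thinning, 310 without macrophages rich in granule RNA, 102 with KO macrophages as a whole and 317 against labelled WT only. The granule cut left out 71 of 93 labelled WT and 61 of 93 labelled Het non-members, against 34 of 74 KO members. The 10 CPM filter tests more genes and a single library asks for 1 comparison in place of 2; the cause of the other shifts was not tested.

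Signs changed for few values. The log2 ratio of Hbb-bs within KO was -2.88 at 5 Gpnmb UMIs and -1.70 after thinning. Without granule-rich macrophages Asprv1 was at 2.35, Stfa3 at 0.44, Abca13 at 1.13 and Ceacam10 at 1.13. The mitochondrially encoded median within KO was -0.019 after thinning, -0.070 without granule-rich cells, -0.021 without dividing cells and -0.27 as a mean over single cells. The mitosis median within KO was 0.033 without dividing cells, and against labelled WT 0.17 at 1 Gpnmb UMI. The S-phase median against labelled Het was -1.18 without Scrublet doublets, -1.57 without granule-rich cells and -0.12 without dividing cells. DESeq2 size factors placed the median of all genes at 0.02 within KO, in place of 0.12. Of 576 values for named genes against the other libraries none changed sign, but 100 moved, 49 of them towards 0; Dhx40 fell short of a call without granule-rich cells (-0.52 against labelled WT), Adgre4 with KO macrophages as a whole, and Ifi27l2a (-0.78 against labelled Het) among Clec4f-bearing cells. Of 264 values within KO 98 moved, 66 towards 0; Abca13 was also at -0.94 with 1 Gpnmb UMI.

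An alternative added after seeing the data kept macrophages with 2 or more Clec4f UMIs; the shares past the gate were then 53.8% in KO, 3.90% in labelled Het and 1.23% in labelled WT. No paired analysis was possible because each genotype is 1 library. Depth limits the labelled WT non-members most, where 3 counts are 3.59 CPM.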

Other observations

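Of the genes that lead in KO Gpnmb-positive macrophages, Zbtb16 and Il1r2 were also higher in KO monocytes, cells outside the macrophage gate. Lepr, Cxcl2 and Cd14 were not. Zbtb16, a zinc-finger transcription factor, was at 70.2 CPM in KO monocytes, 6.19 in labelled Het and 5.52 in labelled WT monocytes. Il1r2, the interleukin-1 decoy receptor, was at 575 CPM in KO, 241 in labelled Het and 39.4 in labelled WT monocytes. Monocytes of labelled Het and labelled WT thus also differed from each other in Il1r2. Neutrophil markers summed to 65607 CPM in KO, 44247 in labelled Het and 42082 in labelled WT monocytes. The part of neutrophil RNA in these levels was not tested. Mitochondrially encoded genes summed to 5555 CPM in KO, 2290 in labelled Het and 2388 in labelled WT monocytes. Lepr and Cxcl2, which lead within KO macrophages, were each under 1 CPM in the monocytes of all 3 libraries. Cd14 was at 87.8 CPM in KO, 155 in labelled Het and 69.8 in labelled WT monocytes, with no excess in KO. The 3 libraries are 1 per genotype, so these are values without a test.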
